A study of Homo sapiens with 20 samples.

Results

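A set of 23764 MLL4 peaks of wild-type (WT) HCT116 cells lay outside every called peak of H3K4me1, H3K4me3 and H3K27ac, out of 55887 MLL4 peaks on chromosomes 1 to 22, a share of 42.5% (95% Wilson interval 42.1% to 42.9%). Peaks were selected on measured values, the called histone peaks: a peak was taken into the set when it shared no base with a peak of any of 10 histone lists, 5 from WT and 5 from MLL4-knockout (KO) cells. The absence of histone peaks is therefore no finding. These peaks are called histone-free below, and the other 32123 WT MLL4 peaks are called marked. The name says only that no histone peak was called there. HCT116 is an established human colorectal carcinoma line, and both genotypes were grown in DMEM with serum, with no treatment named. The WT and KO groups differed, per the labels, in MLL4 alone; how the knockout was made and whether it is 1 clone is not given in the sources used here. MLL4, MLL1 and H3K4me1 had 1 library per genotype and H3K4me3, H3K27ac and p53 had 2, so only p53 could be set against a spread between libraries. Nothing in the labels says that the 2 libraries came from separate cultures, so that spread may be technical. The study set out to examine how MLL4 and p53 work together on chromatin.

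MLL4, the product of KMT2D, is a histone H3 lysine 4 methyltransferase known for placing monomethylation at enhancers, and MLL1, the product of KMT2A, is a related enzyme known mainly from CpG-rich promoters. H3K4me1 is found at enhancers and beside promoters, H3K4me3 at promoters, and H3K27ac at active elements of both kinds. The transcription factor p53 binds a pair of half-sites and switches on genes of cell cycle arrest and apoptosis such as CDKN1A and MDM2.

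Promoters in the set differed in CG content with p53, and the sequences of 7 of them are given first to show this. All are the 250 bases before the start of a protein-coding gene whose promoter was reached by a histone-free peak, from RefSeq on GRCh38.p14, written 5' to 3' on the gene's strand, with every CG dinucleotide in capitals. The first 4 had the highest p53 fold enrichment in the weaker of the WT p53 libraries among protein-coding genes without an MLL1 peak in WT, leaving out symbols that begin with LOC or LINC (LINC02798 had a higher p53 fold). The last 3 had the highest MLL4 fold enrichment among those with no p53 peak in any library.
TPTE, chr21:10521333-10521582, plus strand: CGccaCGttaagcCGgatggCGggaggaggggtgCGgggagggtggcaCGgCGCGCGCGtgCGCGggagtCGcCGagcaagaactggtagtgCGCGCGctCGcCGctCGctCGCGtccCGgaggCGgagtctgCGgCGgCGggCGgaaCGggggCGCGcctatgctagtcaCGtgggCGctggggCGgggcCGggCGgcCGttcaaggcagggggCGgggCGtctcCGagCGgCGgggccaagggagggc
DNAH10, chr12:123762051-123762300, plus strand: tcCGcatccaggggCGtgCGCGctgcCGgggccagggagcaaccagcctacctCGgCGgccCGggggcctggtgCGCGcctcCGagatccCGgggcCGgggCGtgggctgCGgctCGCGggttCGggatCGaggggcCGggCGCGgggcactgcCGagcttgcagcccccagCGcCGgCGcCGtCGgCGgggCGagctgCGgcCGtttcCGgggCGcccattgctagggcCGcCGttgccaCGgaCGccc
ZFP82, chr19:36418645-36418894, minus strand: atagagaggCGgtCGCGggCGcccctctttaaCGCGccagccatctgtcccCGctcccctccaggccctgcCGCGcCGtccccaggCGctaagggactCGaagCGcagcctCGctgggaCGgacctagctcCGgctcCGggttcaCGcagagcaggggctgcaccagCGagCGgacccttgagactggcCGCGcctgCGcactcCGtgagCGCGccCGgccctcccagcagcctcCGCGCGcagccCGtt
CNTN4, chr3:2098616-2098865, plus strand: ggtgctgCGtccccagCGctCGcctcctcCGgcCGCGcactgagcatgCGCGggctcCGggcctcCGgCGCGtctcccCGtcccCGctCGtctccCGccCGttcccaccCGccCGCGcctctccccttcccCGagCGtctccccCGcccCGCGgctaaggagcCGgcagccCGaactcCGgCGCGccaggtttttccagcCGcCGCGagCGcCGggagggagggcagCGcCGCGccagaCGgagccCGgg
HTR3E, chr3:184099929-184100178, plus strand: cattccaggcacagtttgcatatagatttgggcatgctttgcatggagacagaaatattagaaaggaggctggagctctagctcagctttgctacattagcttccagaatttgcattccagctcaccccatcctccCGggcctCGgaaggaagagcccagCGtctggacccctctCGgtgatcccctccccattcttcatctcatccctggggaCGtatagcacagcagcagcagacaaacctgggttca
FGG, chr4:154612657-154612906, minus strand: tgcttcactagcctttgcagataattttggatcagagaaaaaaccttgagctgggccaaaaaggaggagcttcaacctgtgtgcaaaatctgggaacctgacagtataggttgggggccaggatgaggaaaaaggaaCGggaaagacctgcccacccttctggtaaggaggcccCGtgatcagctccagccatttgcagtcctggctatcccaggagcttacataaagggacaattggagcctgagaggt
UNC13C, chr15:53978191-53978440, plus strand: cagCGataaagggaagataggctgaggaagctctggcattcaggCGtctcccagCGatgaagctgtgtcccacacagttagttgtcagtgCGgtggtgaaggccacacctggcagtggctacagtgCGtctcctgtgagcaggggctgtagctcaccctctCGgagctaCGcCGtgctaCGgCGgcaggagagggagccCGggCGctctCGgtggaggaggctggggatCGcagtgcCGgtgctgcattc
These 250 bases held 42 CG dinucleotides at TPTE, 38 at DNAH10, 31 at ZFP82 and 40 at CNTN4. They held 5 at HTR3E, 2 at FGG and 15 at UNC13C. The p53-bound promoters were thus dense in CG and the others sparse, with UNC13C between the groups.

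Fold enrichment, the authors' ratio of MLL4 ChIP over local background at the summit, was low at most histone-free peaks. Its median was 3.69 (quartiles 3.33 and 4.17, highest 50.1) against 4.17 at marked peaks (highest 530). A −log10 q-value of at least 5 was reached by 2050 histone-free peaks (8.63%) and by 6650 marked peaks (20.7%). The median width was 206 bp against 247 bp. Fold enrichment and p-value together gave the number of ChIP fragments stacked at each summit, for every histone-free peak and for 32115 marked ones. At 10684 histone-free peaks (45.0%, Wilson interval 44.3% to 45.6%) this number was 3, the smallest seen in either set, compared with 23.8% of marked peaks. A further 29.3% stood on 4 fragments and 13.2% on 5, and only 379 (1.59%) on 10 or more. Most of the set rested on few fragments of 1 library, and single peaks of this kind have no replicate check. The total read depth of the libraries is unknown.

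**Figure D1:**
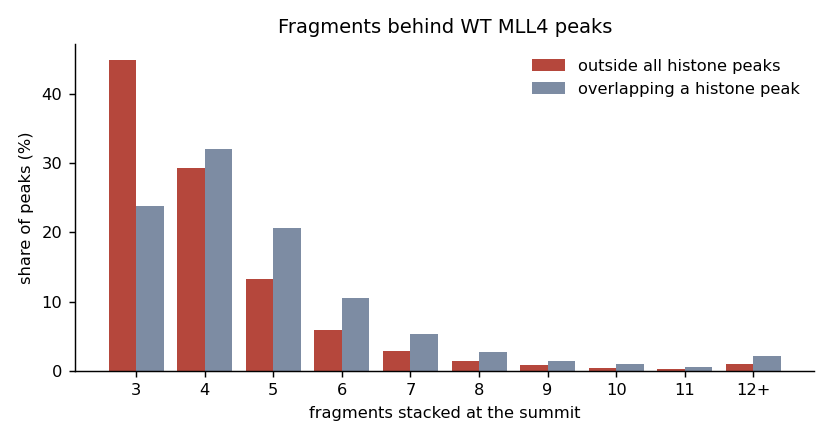
Share of WT MLL4 peaks (vertical axis, %) by the number of ChIP fragments stacked at the summit (horizontal axis), for peaks outside all histone peaks (red) and peaks overlapping one (grey blue); 12+ collects 12 fragments and more. The bar at 3 fragments holds 45.0% of the peaks outside histone peaks and 23.8% of the others.

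Histone-free peaks were not all far from marked chromatin. The median gap to the nearest histone peak was 6.395 kb (quartiles 1.57 and 23.3 kb): 4474 peaks lay within 1 kb and 2095 at 100 kb or more. The median fold fell from 4.04 in the nearest class to 3.80 at 1 to 10 kb, 3.59 at 10 to 100 kb and 3.33 in the farthest. At the lowest background, a summit of 3 fragments had 3.33-fold and a summit of 4 had 4.17-fold. These medians thus lie within a step of 1 fragment. At the limit of the rule, 88 peaks with a gap of at most 10 bp had a median fold of 4.03, and 82 peaks that overlapped a histone peak by 1 to 10 bp had 4.15. By chromosome, the histone-free share of MLL4 peaks ran from 18.4% on the gene-rich chromosome 19 and 20.1% on chromosome 17 to 59.7% on chromosome 4 and 63.0% on chromosome 18.

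Over genes, 48.6% of histone-free peaks touched a protein-coding gene, against 71.0% of marked peaks and 61.5% of all WT MLL4 peaks. Long non-coding RNA genes were touched by 15.3% of histone-free and 13.03% of marked peaks (14% of all peaks). Within 1 kb of a gene start lay 419 histone-free peaks (1.76%) and 23.1% of marked peaks, with 14% over all peaks; the rule removed every peak under H3K4me3, so this difference is a description. Of 19126 protein-coding genes, 5845 (30.6%) held a histone-free peak. Those genes had a median length of 83.0 kb, and genes without one 14.6 kb. Several of the genes with the most were long: DLGAP2, a postsynaptic scaffold protein, held 34, RBFOX1, a neuronal splicing factor, 27, CDH4 and MACROD2 21 each, and CNTNAP2 20. Of 17 long neuronal genes listed, all 17 held at least 1 histone-free peak and 7 held a marked one. These genes were 959 to 2474 kb long and held 0.432 to 1.48 histone-free peaks per 100 kb. The count of 17 was not set against other genes of such length. Per length, among genes with at least 5 histone-free peaks, the order was different. APOB, the main protein of low-density lipoprotein, led with 18 peaks or 42.2 per 100 kb, followed by the glucose transporter SLC2A3 with 35.4, the amino acid transporter SLC38A2 with 34.3, ALB with 29.1 and the p53 target TP53INP1 with 21.4.

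The p53 lists overlapped few histone-free peaks. In the 2 WT libraries 717 (3.02%) and 759 (3.19%) of them overlapped a p53 peak, and in the 2 KO libraries 149 (0.627%) and 793 (3.34%). The KO libraries stood apart from each other and the WT libraries did not. The lengths of the p53 lists did likewise, with 24766 and 61530 peaks in KO against 36046 and 31953 in WT. Over all WT MLL4 peaks the same shares were 22.6%, 21.5%, 19.3% and 30.6%. The mean was 3.11% ± 0.125 (SD, n = 2) in WT and 1.98% ± 1.92 (SD, n = 2) in KO. A log2 ratio of KO over WT was taken as the difference between the mean log2 shares of the libraries, not from these means. It was -1.10 with an exact permutation p of 1, two-sided, where 2 libraries against 2 cannot go below 0.33. Without KO replicate 1 the ratio changed sign to 0.10, so with lists of full length its direction rested on that library. With each p53 list cut to its 24766 peaks of highest −log10 q, the ratio was -1.35. Its exact permutation p was then 0.33, two-sided, the smallest possible. For marked peaks the WT mean was 36.1% ± 1.47 and the KO mean 41.9% ± 12.4 (SD over 2 libraries). Histone-free peaks were lower than marked peaks in 4 of 4 p53 libraries, by 36.5 percentage points on average (SD 7.34, n = 4), with an exact sign-flip p of 0.125, two-sided, the smallest that 4 libraries can give.

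Peaks of p53 in both WT libraries were found at 507 histone-free peaks (2.13%), against 30.7% of marked and 18.6% of all WT MLL4 peaks. In both KO libraries the count was 101 (0.425%), against 17.9% of all, and in all 4 libraries 68, against 12.6%. The 507 count depended on 1 histone library: without H3K27ac WT replicate 2 the share rose to 3.59%, and that in both KO libraries to 0.852%. At the 507 peaks the median p53 fold was 8.91 in WT replicate 1 and 16.2 in WT replicate 2. KO replicate 1, with the shorter list, had a p53 peak at 82 of the 507 (16.2%). KO replicate 2, with the longer list, had one at 294 (58.0%). Among all WT MLL4 peaks with p53 in both WT libraries these shares were 70.1% and 90.2%. Both groups were selected for p53 peaks in WT. A gene start lay within 1 kb of 106 of the 507 (20.9%), against 1.76% of the whole set. The share was below that of marked peaks within each of 6 classes of MLL4 fold: under 4-fold, 0.764% of histone-free and 16.9% of marked peaks had p53 in both WT libraries, and at 15-fold or more 14 of 37 (37.8%) and 58.9%.

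**Figure D2:**
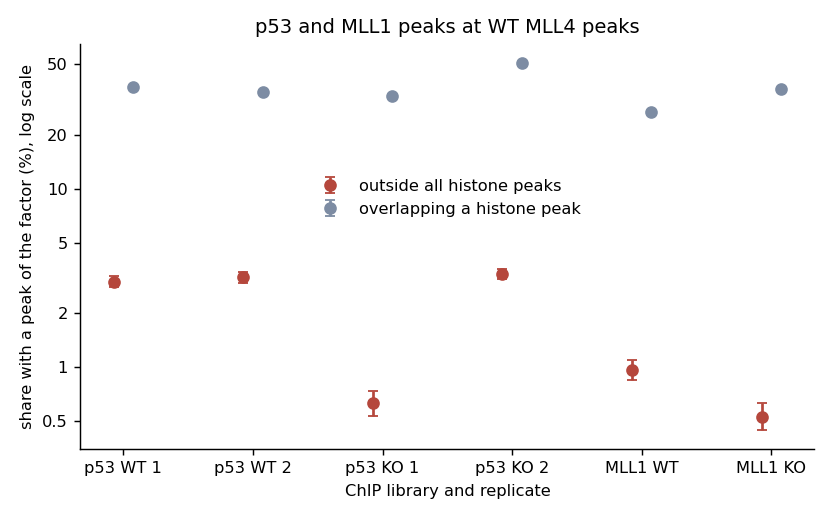
Share of WT MLL4 peaks that overlap a peak of each p53 and MLL1 library (vertical axis, %, log scale), for peaks outside all histone peaks (red) and peaks overlapping one (grey blue); bars are 95% Wilson intervals, which cover counting error over peaks only. The red points lie between 0.526% (MLL1 KO) and 3.34% (p53 KO 2) and the grey blue points between 26.97% (MLL1 WT) and 50.7% (p53 KO 2).

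Known p53 target genes were looked at next. Of 31 targets in the gene table, 15 (48.4%) had a histone-free peak in the gene or within 10 kb, near the 40.7% of all protein-coding genes. None of the 22 peaks at these genes overlapped a p53 or MLL1 peak in any library, where 5.69% of the whole set overlapped p53 in some library, so a count of 0 is near that share. Their MLL4 fold ran from 3.22 to 7.50. TP53INP1, a regulator of autophagy and cell death, held 5. CCNG1, a cyclin that p53 induces, held the strongest at 7.50-fold. MDM2, the ubiquitin ligase that limits p53, held 1 of 3.33-fold, and CDKN1A, the cyclin-dependent kinase inhibitor, held none and 4 marked peaks. Among the methyltransferase genes KMT2C held 5 histone-free peaks, KMT2A 1, and KMT2D and KMT2B none.

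The 68 histone-free peaks with p53 in all 4 libraries included starts of genes and sites in duplicated sequence. At DNAH10, an axonemal dynein chain whose promoter is printed above, a peak of 4.04-fold for MLL4 carried p53 folds of 17.4 and 27.9 in the WT libraries, with 6.13 and 6.35 in those of KO. GDF7, a growth factor of the bone morphogenetic protein family, had 3.33-fold MLL4. Its p53 folds were 10.6 and 19.7 for WT, 6.64 and 6.35 for KO. The peak beside TAFA4, a secreted chemokine-like protein, had 5.00-fold MLL4, p53 folds of 7.55 and 21.1 in WT, and KO values equal to those at GDF7. At each of these 3 sites both WT values were above both KO values. At LINC01435, also among the 10 sites that the naming rule picked, they overlapped, with 9.51 and 37.8 in WT against 7.24 and 9.57 in KO. The p53 lists as a whole had higher folds in WT, with medians of 7.55 and 11.98 against 5.62 and 5.08 in KO, so WT above KO was also the pattern of the lists. The strongest MLL4 peak of the 10 lay between genes at chr16:33491342-33492592 (hg38), 29092 bp from TP53TG3F, with 24.9-fold MLL4 and p53 folds of 38.3, 94.0, 6.80 and 17.9 in the same order of libraries.

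At promoters, taken as 250 bases before to 50 after each of 33725 starts, histone-free peaks reached 142 windows of 138 genes, 76 windows of protein-coding and 66 of long non-coding RNA genes. Of these windows 59 (41.5%) also held p53 peaks of both WT libraries, against 59.9% of promoters under marked MLL4 peaks. The share was 27% over all promoters and 5.01% over the 10137 promoters with no histone peak in any list. Among the 142 windows, 73 had no p53 peak in any library. The 59 had a median of 32 CG dinucleotides per 300 bases (quartiles 26 and 38), a median GC content of 70.3% and an observed over expected CpG ratio above 0.6 in 98.3%. The 73 had a median of 4 (quartiles 1 and 10), a GC content of 46.3% and such a ratio in 23.3%. TPTE and FGG in the sequences above show the contrast, with p53 folds of 19.6 and 39.6 in WT at TPTE and no p53 peak at FGG. Promoters under marked MLL4 peaks had a median of 31 and promoters with neither a histone nor an MLL4 peak a median of 3. CG density went with p53 also where no MLL4 peak was asked for: the 508 promoters without a histone peak that had p53 in both WT libraries had a median of 30. MLL1 reached 1 of the 142 windows in WT and 4 in KO, against 12719 and 15099 of all 33725 promoters and 20 and 50 of the 10137 without a histone peak. The p53 half-site, searched on both strands in the 300 bases, occurred in 1.69% of the 59, 8.22% of the 73 and 6.64% of all promoters. Under marked MLL4 peaks the share was 4.48%, and among the 508 promoters 3.94%. With 59 and 73 windows, the first 2 shares rest on few promoters. The motif GGGCGG, on either strand, occurred in 71.2% of the 59, 12.3% of the 73, 45.0% of all and 80.4% of promoters under marked peaks. TATAAA occurred in 5.08%, 16.4%, 11.6% and 3.84% in the same order.

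**Figure D3:**
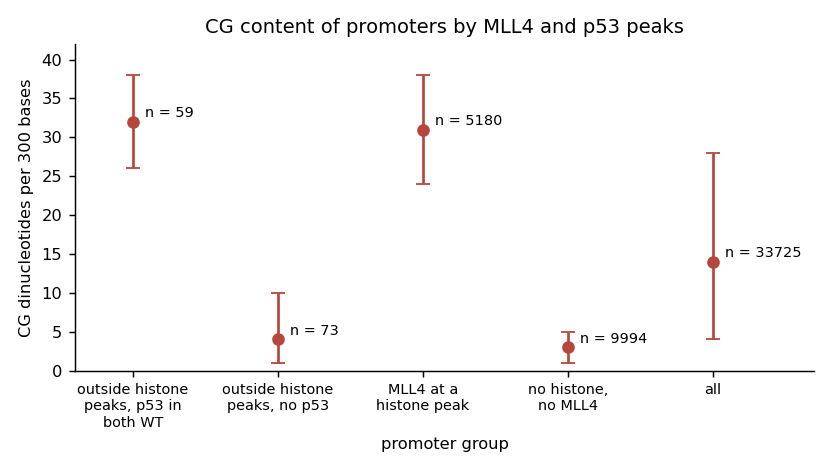
CG dinucleotides per 300-base promoter window (vertical axis) in 5 groups of promoters (horizontal axis), with the median as a point and quartiles as bars; n is the number of promoters. Promoters reached by histone-free peaks with p53 in both WT libraries (median 32) lie at the level of promoters with a marked MLL4 peak (31), and those without p53 (median 4) near promoters with neither MLL4 nor histone peaks (3).

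MLL1 of WT overlapped 230 histone-free peaks (0.968%), against 26.97% of marked and 15.9% of all WT MLL4 peaks. MLL1 of KO overlapped 125 (0.526%), against 36.2% of marked and 21% of all. Without H3K27ac WT replicate 2 the KO share rose to 0.914%. MLL1 had 1 library per genotype, so these counts have no test. The called sites differed between the 2 libraries: of the 230 with MLL1 in WT, 13 (5.65%) had it in KO. Of the marked peaks with MLL1 in WT, 90.4% had it in KO. The 2 groups were not matched for MLL1 fold, whose WT median at the 230 was 4.15. Many of the 230 also had an MLL4 peak in KO: of 93 such histone-free peaks, described below, 88 had MLL1 in WT and 3 in KO. The 13 sites with MLL1 in both are 10.4% of the KO set. KNDC1, a neuronal guanine nucleotide exchange factor, was among the 13, with 13.3-fold MLL4 and MLL1 folds of 5.91 in WT and 27.2 in KO. A site between genes at chr10:132490525-132491289 had 15.4-fold MLL4 and MLL1 folds of 4.84 in WT and 17.5 in KO. Both had the higher MLL1 fold in KO, and the other 3 sites named by the rule had the higher fold in WT: LINC01667 with 8.86 in WT against 5.18 in KO, a site at chr12:37246508-37248990 with 6.97 against 2.92, and MIR10396A with 5.64 against 5.18. Over the whole lists the median MLL1 fold was 4.62 in WT and 6.48 in KO. The highest WT folds among sites with MLL1 in WT only, 11.2 and 10.7, were in a single region of chromosome 9.

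That region also held 31 of the sites with MLL4 signal in the knockout. Of the histone-free peaks 93 (0.391%) overlapped 1 of the 257 MLL4 peaks of KO, against 45 marked peaks (0.140%) and 0.247% of all. MLL1 in WT was present at 88 of the 93 and MLL1 in KO at 3. Marked peaks with a KO MLL4 peak had MLL1 in WT at nearly the same share, 42 of 45. The bin from 60 to 61 Mb of chromosome 9 held 41 histone-free peaks, the most of any 1-Mb bin, and 31 of the 93. Chromosome 1 held 23 and chromosome 16 held 11 of the 93. Of those on chromosome 1, 12 lay between 143 and 144 Mb. The median bin with any held 8. At chr9:60635810-60636120, 278251 bp from the nearest protein-coding gene SPATA31A5, MLL4 fold was 4.90 in WT and 11.4 in KO. Folds from libraries called separately are the authors' own and were not tested against each other. Of the KO list, 72 peaks (28.0%) overlapped a histone-free peak, 50 a marked one and 140 no WT MLL4 peak. They touched 0 of the 37 histone-free pseudogene peaks of 10-fold or more and 1.41% of all WT MLL4 peaks of that fold; with a KO list this short, the 0 is near that share.

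The strongest histone-free peaks lay largely on pseudogenes. Below 4-fold 1.81% of them touched a pseudogene, near the 2.42% of the whole set and the 2.65% of all WT MLL4 peaks. The share was 3.45% at 5 to 7-fold, 6.10% at 7 to 10-fold, 18.1% at 10 to 15-fold, and 20 of 37 (54.1%, Wilson interval 38.4% to 69.0%) at 15-fold or more. Marked peaks had 2.69% below 4-fold and 13.7% at 15-fold or more, and all WT MLL4 peaks of 15-fold or more had 18.2%. Without chromosome 21 the top share was 17 of 28 (60.7%), and it was the same 20 of 37 without transcribed pseudogenes. These classes were formed after earlier results were known and the peaks come from 1 library, so no test was made.

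**Figure D4:**
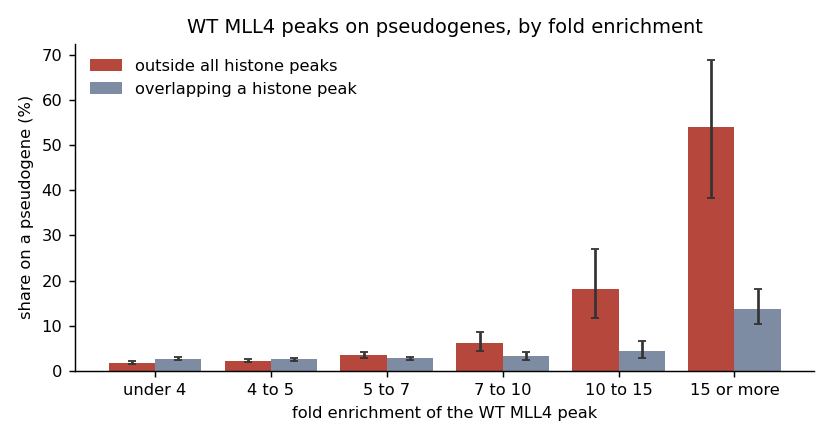
Share of WT MLL4 peaks that touch a pseudogene (vertical axis, %) by class of MLL4 fold enrichment (horizontal axis), for peaks outside all histone peaks (red) and peaks overlapping one (grey blue); bars are 95% Wilson intervals over peaks. The red bars go from 1.81% below 4-fold to 54.1% at 15-fold or more, and the last grey blue bar is 13.7%.

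Pseudogenes of ribosomal proteins were 14 of the 20 at 15-fold or more. They are mostly retrocopies, reinserted from spliced messenger RNA of the subunits of the ribosome. They resemble the exons of active genes, to a degree that was not measured here. They were touched by 9 of 12569 histone-free peaks below 4-fold (0.0716%) and by 37.8% of those at 15-fold or more. Of all 15521 pseudogenes 517 (3.33%) held a histone-free peak, and 7.1% any WT MLL4 peak. Of 1914 ribosomal protein pseudogenes 55 held a histone-free peak and 20 one of 10-fold or more. Marked peaks were on 54 of them, and 32 held a marked peak of 10-fold or more, so strong peaks on these pseudogenes were not particular to the histone-free set. The strongest were RPS28P7 with 29.1-fold, RPL12P16 with 24.7, RPL32P18 and RPL6P10 with 23.2 each, RPL14P1 with 23.1, RPL6P27 with 21.99 and RPS27AP16 with 21.8. All 20 peaks of 10-fold or more lay wholly inside the pseudogene, and covered a median of 82.1% of its length (lowest 38.0%, highest 97.9%). The 36 weaker ones covered a median of 31.2%. Histone-free peaks on other pseudogenes covered 2.19%, but these were of any fold, so the 82.1% has no counterpart of like fold there. The peak at RPL6P27, chr18:6462121-6463001, was 881 bp long and 466453 bp from the nearest histone peak. RPS28P7 carried peaks of both MLL1 and 3 of 4 p53 libraries, with p53 folds of 8.91 and 5.18 in WT. Of the 20 pseudogenes, 6 and 7 overlapped a p53 peak of the WT libraries, 0 and 4 of the KO libraries, and 1 an MLL1 peak in each genotype. In the same order, p53 shares of histone-free peaks were 10.6%, 16.0%, 1.06% and 5.32% at 10 to 15-fold. They were 51.4%, 43.2%, 5.41% and 24.3% at 15-fold or more, against 3.02%, 3.19%, 0.627% and 3.34% of the whole set. MLL1 shares in WT and KO were 7.45% and 6.38% at 10 to 15-fold, and 18.9% each at 15-fold or more.

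Of other pseudogenes, 15 held a histone-free peak of 10-fold or more, the strongest being LOC110467529 with 49.2-fold and RNA18SP5 with 23.3-fold, both in the ribosomal DNA part of chromosome 21. Others, chosen after their values were seen, were PPIAP22, a copy of cyclophilin A, at 19.7-fold, FTLP3 and FTH1P7, copies of the ferritin chains, at 17.0 and 15.0, EEF1A1P6, a copy of a translation elongation factor, at 16.2, and HNRNPA1P7, a copy of an RNA-binding protein, at 14.6. FTH1P7 had p53 folds of 13.1 and 25.3 in WT. How reads that fit several copies were placed is not given in the sources used here, so which copy these fragments came from is uncertain, and the part of read placement in these peaks was not tested.

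**Figure D5:**
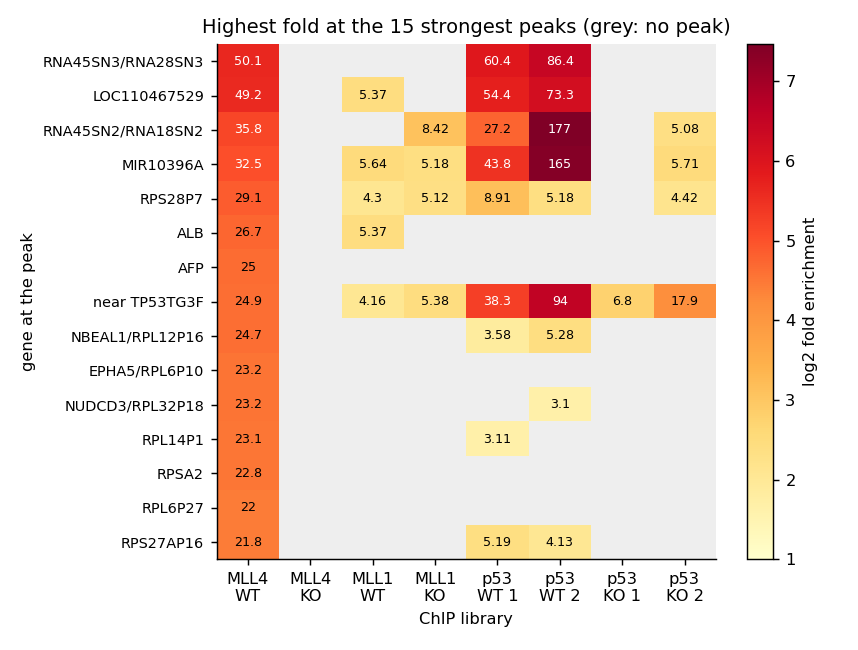
The 15 strongest histone-free MLL4 peaks, 1 per 10 kb, in rows named by the gene or genes they touch, and the 8 factor libraries in columns; colour and printed numbers give the highest fold enrichment of an overlapping peak, and grey means that no peak was called. MLL4 in KO is grey in all 15, and the ribosomal DNA rows at the top have p53 folds up to 177 in WT.

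Of short-RNA genes, 26 histone-free peaks (0.109%) touched 1, against 180 marked peaks (0.560%) and 0.369% of all. They were 23 of 3595 genes, where marked peaks reached 202 and any WT MLL4 peak 6.09%. Genes transcribed by RNA polymerase III were not among them. No histone-free peak was on the 439 transfer RNA genes or the 3 signal recognition particle RNA genes. None was on the RNase P and MRP RNA, Y RNA or vault RNA genes, nor on the 151 small nuclear RNA genes. With only 23 of 3595 short-RNA genes reached, these counts of 0 are near the share over all of them. Marked peaks reached 8 transfer RNA genes and all 3 signal recognition particle RNA genes, the latter with up to 530-fold. Histone-free peaks were on 8 of 1793 microRNA, 9 of 1150 small nucleolar RNA and 6 of 49 ribosomal RNA genes. On the small nucleolar RNA genes SNORA66, SNORD133 and SNORD19, guides of ribosomal RNA modification, MLL4 folds were 10.0, 6.47 and 5.84. They had no p53 or MLL1 peak. SNORD19 lies inside the protein-coding gene GNL3, where 2 histone-free peaks of up to 5.84-fold covered 22.6% of the gene.

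The strongest short-RNA sites were copies of ribosomal DNA on chromosome 21. The histone-free peak on RNA28SN3, within RNA45SN3, had 50.1-fold MLL4, the highest of the set, and overlapped p53 peaks of 60.4 and 86.4-fold in WT and none in KO. Elsewhere in RNA28SN3 p53 peaks reached 137 and 328-fold in WT and 13.95 and 21.6-fold in KO. The histone-free peak on RNA18SN2, within RNA45SN2, had 35.8-fold MLL4, with p53 at 27.2 and 177 in WT, none in KO replicate 1 and 5.08 in KO replicate 2. The same genes also held marked MLL4 peaks of up to 115-fold and 55.5-fold. These genes are near-identical repeats, and which copy a fragment came from is uncertain. The microRNA genes with the strongest peaks lay in repeated sequence as well: MIR10396A (32.5-fold) and MIR3648-2 (17.5-fold) in the same part of chromosome 21, and MIR4444-2 (10.7-fold) inside the pseudogene HNRNPA3P6. Their mature sequences (RefSeq, GRCh38.p14), with the seed of bases 2 to 8 in capitals, are printed because they show the GC-rich makeup of the chromosome 21 loci and that no seed is shared.
hsa-miR-10396a-5p, chr21:8987617-8987635, plus strand: gGCGGGGCucggagccggg
hsa-miR-10396a-3p, chr21:8987645-8987665, plus strand: gGCCCCGGgcccucgaccggg
hsa-miR-3648, chr21:8987026-8987046, plus strand: aGCCGCGGggaucgccgaggg
hsa-miR-4444, chr3:75214518-75214535, plus strand: cUCGAGUUggaagaggcg
MIR10396A and MIR3648-2 also carried p53 folds of 43.8 and 165 in the WT libraries, and MIR4444-2 none.

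A few strong histone-free peaks covered genes of secreted liver proteins. HCT116 is a colon line, and its markers were checked by H3K4me3 of both WT libraries within 1 kb of the gene: 12 of 13 colon epithelial markers had it, all but VIL1. So did 1 of 5 blood, 2 of 4 fibroblast, 3 of 3 neuronal and 1 of 2 liver markers. ALB, the gene of serum albumin and the liver marker without it, held 5 histone-free peaks covering 65.2% of the gene, with folds from 3.33 to 26.7. The widest ran over 8718 bp at chr4:73411288-73420005, 30524 bp from the nearest histone peak, and overlapped an MLL1 peak of 5.37-fold in WT and no p53 peak. No histone list had a peak in ALB. Its neighbour AFP, alpha-fetoprotein, held 2 histone-free peaks of 5.65 and 25.01-fold. APOB held 18 of 3.33 to 10.8-fold, covering 41.3% of the gene, and FGG, the fibrinogen gamma chain, 4 of 3.33 to 7.50-fold covering 36.5%. None of the peaks on AFP, APOB or FGG overlapped p53, MLL1 or KO MLL4. Of the whole set, 5.69% overlapped p53 in some library, 1.44% MLL1 in either genotype and 0.391% KO MLL4. With so few peaks on these genes, the counts of 0 are near those shares.

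This pattern led to a list of 18 secreted liver proteins, drawn up after those values were seen. Of these genes 7 held a histone-free peak, near the 30.6% of all protein-coding genes, and 11 a marked one. WT MLL4 peaks of any kind covered over 20% of the gene at 9 of the 18, against 3 of 13 colon markers and 3.39% of all protein-coding genes. Gene length was not matched here, and a short gene passes 20% with fewer covered bases. The 9 ran from 1.34 kb (APOA2) to 42.6 kb (APOB), and the 3 colon markers from 1.695 kb (CLDN4) to 4.05 kb (KRT18). The 9 include ALB, AFP, APOB and FGG, which prompted the list, and the other 5 (APOA2, AHSG, FGA, APOA1 and SERPINA1) held no histone-free peak. FGB, HP, VTN and TTR had no WT MLL4 peak. H3K4me3 of both WT libraries was within 1 kb of 4 of the 18, and 6 had no histone peak in the gene. Other genes covered in this way, chosen after their values were seen, were LYZ, lysozyme, with 2 peaks over 27.9% of the gene, and COL3A1, a fibrillar collagen and 1 of the fibroblast markers without H3K4me3, with 7 over 15.1%.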

How the data were processed

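The data were 18 peak lists, 1 per ChIP library, from 20 samples; the 2 inputs had no list of their own and were not used here. Per the submitters' processing notes, MACS2 2.1.1 called the peaks on hg38, and names inside the deposited lists show 1 call per library, with no pooling. For the aligner, read filters and depth, nothing is stated in the sources used here. In the deposited lists column 7 is a fold enrichment (ratio), columns 8 and 9 are −log10 p-values and q-values, and the score is an integer form of the last; all are the authors' values. Overlap meant at least 1 shared base on chromosomes 1 to 22. Fragment numbers were solved from fold and p-value with MACS2's pseudocount of 1 and its Poisson model, accepted within 0.002 in −log10 p. Gene types and promoters came from RefSeq on GRCh38.p14, which holds 56756 genes on these chromosomes. Overlap and fragment functions were tested on simulated data. Intervals are 95% Wilson and cover counting error over peaks only; neighbouring peaks are not independent. The peaks with the highest MLL4, MLL1, p53 and KO MLL4 folds, the genes with the most peaks and fixed gene lists were named by rule. A gene that the rule names is not reported here. The set, the rule and the lists were chosen with earlier results of these data known. Python 3.11.15, pandas 2.3.3 and scipy 1.17.1 were used.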

Additional observations from a re-analysis of the deposited data

How the results depend on the processing

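Each result was recomputed under other settings; the pseudogene and promoter alternatives and the comparison of p53 shares with marked peaks were chosen after seeing the data. Keeping MLL4 peaks of −log10 q at least 5 left 2050 histone-free peaks, and moved the share in protein-coding genes to 50.05%, on short-RNA genes to 0.585%, with MLL1 in WT to 4.05% and in KO to 2%, with p53 in both WT libraries to 7.22% and both KO to 2.05%, and with KO MLL4 to 2.29%. Widening histone peaks by 1000 bp gave 47.0% in protein-coding genes, 0.389% with MLL1 in KO and 1.91% with p53 in both WT. WT histone lists alone gave 0.157% on short-RNA genes and 2.35% with p53 in both WT. Requiring histone cover of 50% gave 0.167% on short-RNA genes, 0.753% with MLL1 in KO, 2.64% with p53 in both WT and 0.638% in both KO. Histone peaks of −log10 q at least 5 gave 50.2% in protein-coding genes, 0.168% on short-RNA genes, 1.14% and 0.977% with MLL1 in WT and KO, and 3.55% and 0.900% with p53 in both WT and both KO. Stricter MLL1 and p53 lists (−log10 q at least 5) gave 0.438% and 0.181% with MLL1 and 1.78% and 0.181% with p53, and summits inside the other peak 0.694%, 0.379%, 1.67% and 0.290% in the same order. Short RNAs within 500 bp gave 0.252%, and with their pseudogenes 0.168%.

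Leaving out each replicated histone library in turn gave 23764 to 26159 histone-free peaks, 48.5% to 49.8% in protein-coding genes, 0.109% to 0.116% on short-RNA genes, 0.967% to 1.04% with MLL1 in WT, 0.525% to 0.914% in KO, 2.13% to 3.59% with p53 in both WT, 0.425% to 0.852% in both KO and 0.363% to 0.399% with KO MLL4. The upper ends for the number of peaks, MLL1 in KO and p53 came from H3K27ac WT replicate 2. The log2 ratio of KO over WT share with p53 ran from -2.31 to 0.10 when single histone or p53 libraries were left out; it reversed, to 0.10, without p53 KO replicate 1. Over its 20 alternatives the exact permutation p was between 0.33 and 1. With the replicate number as a block the ratio was -1.10 with an exact sign-flip p of 1; the labels do not say that a number marks a shared culture, and with only 2 pairs the numbers were not taken to pair the libraries.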
